A study of Mus musculus with 6 samples.

Results

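Trp53, which encodes the transcription factor p53, and 29 genes that p53 is known to regulate or that bind or modify it were followed in cultures of mouse B cell leukaemia with and without mutations of Ikaros. The 30 genes were taken by symbol from a table of 22099 genes, and all 30 had a level of at least 1 RPKM (reads per kilobase of transcript, scaled to the size of the library) in at least 2 of the 6 libraries, as did 11345 genes in all. Perp passed only through the wt libraries and Dram1 needed the ZnF1 mutant libraries to pass, the group where each was highest, so counts are also given over the other 28 genes.

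The cultures came from whole bone marrow of C57BL/6 mice, transduced at day 0 with a retrovirus that carries BCR-ABL p185, an oncogenic fusion kinase, and a yellow fluorescent protein, and RNA was taken after 14 days in vitro. The 3 groups were Ikaros ZnF4-/- cells, which lack the fourth zinc finger of Ikaros (the ZnF4 mutant), Ikaros ZnF1-/- cells, which lack the first (the ZnF1 mutant), and wt cells, with 2 biological replicates of each. All 3 groups carry the retrovirus, so wt stands for leukaemic cells with intact Ikaros and not for normal marrow. The labels call the cells transformed pro-B leukaemia cells, mention no sorting of transduced cells and give no age of the mice.

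p53 is held at a low level by MDM2, a ubiquitin ligase that p53 itself induces, and by the related protein MDM4. Oncogenes raise p53 through ARF, a product of Cdkn2a that blocks MDM2, and DNA damage raises it through the kinases ATM and CHK2. Its targets arrest the cell cycle (Cdkn1a), drive apoptosis (Bax, Bbc3, Pmaip1, Fas) and repair DNA, and in BCR-ABL leukaemia the ARF and p53 axis is a known barrier to transformation.

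B lineage transcripts were abundant in sum in every library. The 12 markers summed to 3739 and 2552 RPKM in ZnF4 mutant replicates 1 and 2, 3750 and 3178 in the ZnF1 mutant, with 3435 and 2642 in wt. Pax5, a transcription factor gene that commits cells to the B lineage, was at 174.1 and 128.1 RPKM in ZnF4 mutant replicates 1 and 2, 132.3 and 184.5 in the ZnF1 mutant, with 140.8 and 126 in wt. Igll1, which encodes a part of the pre-B cell receptor, was at 1201.4 and 801.4 RPKM in the ZnF4 mutant, 803.5 and 749 in the ZnF1 mutant, with 817.5 and 621.6 in wt. Other B lineage markers were lower or moved with genotype. Rag1 was at 31.6 and 33.3 RPKM in the ZnF4 mutant, 29.2 and 35.9 in the ZnF1 mutant, with 5.4 and 8.7 in wt. Rag2 was at 14.1 and 16.1, 12.3 and 17.2, and 4.4 and 8.6, and Dntt at 79.4 and 40.6, 205.7 and 129.2, and 189.2 and 161.4, in the same order. Other marrow cells left transcripts as well. The 13 myeloid markers summed to 455 and 459.8 RPKM in the ZnF4 mutant, 1151 and 1213 in the ZnF1 mutant, with 428.2 and 460.8 in wt, and the 11 stromal markers, of which Lum was at 0, to 87.8 and 80.1, 341.2 and 183.9, and 76.5 and 84.7 in the same order. The 10 granulocyte markers stood at 1636 RPKM in ZnF1 mutant replicate 2 and 532.8 in wt replicate 1, against 0.5 to 53.3 in the other 4 libraries. The 8 T and NK cell markers summed to at most 2.5 RPKM, with Cd3e and Cd8a at 0, and the 7 erythroid markers to at most 15.6. In bulk RNA, fewer cells of a type and less RNA per cell cannot be told apart.

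Expression on the log2(RPKM + 1) scale was compared with limma, 1 fit holding the 6 libraries, and p-values were adjusted by Benjamini-Hochberg over the 11345 genes. The threshold was an adjusted p of 0.05, and all fold changes are differences on that log scale, where the added 1 shrinks the change of a gene with a low level. Same-numbered libraries of the 3 groups deviated from their group means in the same direction (correlations across genes of 0.754, 0.715 and 0.5 for the 3 pairs of groups). A fit blocked on the replicate number is therefore given beside a result wherever it changed the call. In parentheses after a fold change, the first p is limma's adjusted p without the block and the second, after "or", is that of the blocked fit.

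Measured per length, Trp53 was the most abundant of the 30 genes, with a mean over the 6 libraries of 197.5 RPKM. It was followed by Cdkn1a, the p21 inhibitor of cyclin-dependent kinases, at 124.7 RPKM, the pore-forming apoptosis gene Bax at 124.1 and the cyclin gene Ccng1 at 118.5. These 3 do not differ in order beyond the spread of their libraries. The value of Trp53 sums 2 RefSeq rows that overlap in sequence. Its larger row alone lay between 99.1 and 174.5 RPKM over the 6 libraries, a range that holds the means of all 3. Rps27l and Ei24 followed at 67.4 and 56.8 RPKM, 8 genes including Mdm2 and Zmat3 lay between 17.9 and 32.7 RPKM, and the lowest were Eda2r, Fas, Dram1 and Perp, at 0.933 to 1.5 RPKM.

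Replicate 1 and replicate 2 libraries differed in many of these genes in all 3 genotypes. The phosphoinositide-binding gene Phlda3 stood at 13.5 and 3.9 RPKM in ZnF4 mutant replicates 1 and 2, 27.2 and 13.9 in the ZnF1 mutant, with 21 and 8.4 in wt. Bax, Bbc3, Cdkn1a and Rps27l were likewise lower in replicate 2 of each genotype, while Mdm2, Mdm4, Polk and Ckap2 were higher there. The difference moved with transcript length. For the 5 members with transcripts shorter than 1500 bases, the median of replicate 2 minus replicate 1 (log2) was −0.31 in the ZnF4 mutant, −0.83 in the ZnF1 mutant and −0.68 in wt, and for the 11 members of 3000 bases or longer it was −0.04, 0.11 and 0.31. Over all genes tested, the shorter class had medians of −0.15, −0.31 and −0.27 and the longer class of 0.02, 0 and 0.01. Whether transcript length or its handling in the libraries had a part in this was not tested.

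Promoter windows of RefSeq (build GRCm38.p6), from 250 bases before to 50 bases after each annotated start, were matched to 23 of the 30 genes. Those without an entry were Ddb2, Perp, Pmaip1, Rrm2b, Trp53inp1, Xpc and Zmat3. The windows were searched for the p53 decamer, the palindromic 10-base unit of the p53 response element, which reads alike on both strands, with no mismatch allowed. It was found in 12 of the 23 genes (52.2%), against 9.55% of the 27025 genes of the promoter table. A pair of decamers with intact cores, at most 13 bases between them and at most 2 mismatches in all was found in 5 of the 23 genes (21.7%), against 2.47% of the table. A match describes the letters of the window and does not show binding. For each of the 5 genes the pair with the fewest bases between its decamers is shown. The windows of Cdkn1a, Rps27l, Bax and Ckap2 held 2 pairs each. The stretches let the reader compare targets that passed only with the replicate block (Cdkn1a, Sesn1) with targets that passed neither with nor without it (Rps27l, Bax, Ckap2). The single decamers of Ccng1, Mdm2 and Ei24 are shown because these genes were lower in the ZnF4 than in the ZnF1 mutant, also only with the block. Capitals mark the decamers of the pair or single match shown, and any other match stays in lower case. Each stretch is written 5′ to 3′ on the strand of the gene.
Cdkn1a, chr17:29090908-29090967, plus strand: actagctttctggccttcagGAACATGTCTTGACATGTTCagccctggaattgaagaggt
Sesn1, chr10:41887233-41887295, plus strand: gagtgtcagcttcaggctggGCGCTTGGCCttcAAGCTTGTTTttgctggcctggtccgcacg
Rps27l, chr9:66946276-66946335, plus strand: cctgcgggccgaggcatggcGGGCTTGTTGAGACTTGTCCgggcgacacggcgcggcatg
Bax, chr7:45467059-45467119, minus strand: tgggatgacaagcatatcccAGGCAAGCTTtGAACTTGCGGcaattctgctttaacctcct
Ckap2, chr8:22185983-22186042, minus strand: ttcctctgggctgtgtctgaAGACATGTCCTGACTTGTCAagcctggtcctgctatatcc
Ccng1, chr11:40755442-40755491, minus strand: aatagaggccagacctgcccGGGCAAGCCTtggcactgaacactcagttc
Mdm2, chr10:117710915-117710964, minus strand: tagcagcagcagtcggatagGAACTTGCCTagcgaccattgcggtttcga
Ei24, chr9:36797315-36797364, minus strand: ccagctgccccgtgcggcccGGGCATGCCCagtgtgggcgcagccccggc

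Of the pairs shown, those of Cdkn1a and Rps27l are contiguous with 1 mismatch, and that of Ckap2 is contiguous with 2. Those of Bax and Sesn1 have 2 mismatches and 1 and 3 bases between the decamers. The first base of the pair shown lay 51 bases before the annotated start of its window in Cdkn1a, 117 in Rps27l, 186 in Sesn1, 201 in Bax and 203 in Ckap2. Cdkn1a, Rps27l and Sesn1 each have another window, at another annotated start, that held no decamer and no pair. Of the 12 genes with a window that were lower in the ZnF4 than in the ZnF1 mutant with the block, 5 held a decamer, as did 7 of the 11 that did not pass.

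In the ZnF4 mutant against wt, 22 of the 30 genes had a fold change below 0, with a median of −0.22, beside a median of 0.04 over all genes tested. Without the replicate block 0 of the 30 passed with limma, and the background was 1.3% of all genes called lower and 1.43% called higher. At an unadjusted p under 0.05 there were 5 lower and 1 higher, beside 657 lower and 672 higher of all 11345 genes. With the block 10 were lower (33.3%) and 1 was higher (3.33%), beside a background of 7.92% lower and 8.02% higher. Over the 28 genes without Perp and Dram1, 9 were lower and 1 higher with the block, and the median was −0.22. In 9 of the 30 genes both ZnF4 mutant libraries lay below both wt libraries (30%), against 13.8% of all genes, and in 1 they lay above (3.33%, against 17.8%). Without Perp and Dram1, 8 of 28 lay below.

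In the ZnF1 mutant against wt, 20 of the 30 genes had a fold change above 0, with a median of 0.14 beside −0.01 over all genes. Without the block 0 passed with limma, as for all genes (background 0% in both directions). At an unadjusted p under 0.05 there were 4 higher and 1 lower, beside 1040 higher and 241 lower of all 11345 genes. With the block 5 were higher (16.7%), beside a background of 10.4%, and 0 were lower, beside 2.88%. Both ZnF1 mutant libraries lay above both wt libraries in 6 genes (20%, against 18.3% of all genes) and below them in 3 (10%, against 12.7%). Over the 28 genes without Perp and Dram1, 4 were higher with the block, 3 higher and 0 lower had an unadjusted p under 0.05, and the libraries lay above wt in 5 and below in 2.

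The comparison of the 2 mutants with each other gave the most calls. In the ZnF4 against the ZnF1 mutant, 24 of the 30 genes had a fold change below 0, with a median of −0.31 beside 0.04 over all genes. At an unadjusted p under 0.05 there were 9 lower and 0 higher, beside 1419 lower and 776 higher of all 11345 genes. Without the block 4 genes fell, Eda2r, Btg2, Plk2 and Trp53inp1 (13.3%, beside a background of 3.75%), and 0 rose, beside 1.61%. Leaving out any 1 of the 4 mutant libraries left 0 of the 4 calls, and leaving out either wt library left 2, Eda2r and Trp53inp1. With the block 15 were lower (50%, beside 19.2%) and 0 higher (beside 15.9%). Both ZnF4 mutant libraries lay below both ZnF1 mutant libraries in 16 genes (53.3%, against 21.8%) and above them in 1 (3.33%, against 21.7%). Over the 28 genes without Perp and Dram1, 4 fell without the block, 14 were lower with it, 14 lay below without overlap, and the median was −0.28. The comparisons of each mutant with wt share the wt libraries, so their values are given side by side and not as independent findings. The adjusted p of the genes called with the block was 0.00699 to 0.0424 for the ZnF4 mutant against wt (0.0293 to 1 in the other alternatives), 0.00609 to 0.0484 for the ZnF1 mutant against wt (0.073 to 1) and 0.0017 to 0.029 for the ZnF4 against the ZnF1 mutant (0.015 to 0.977).

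**Figure D1:**
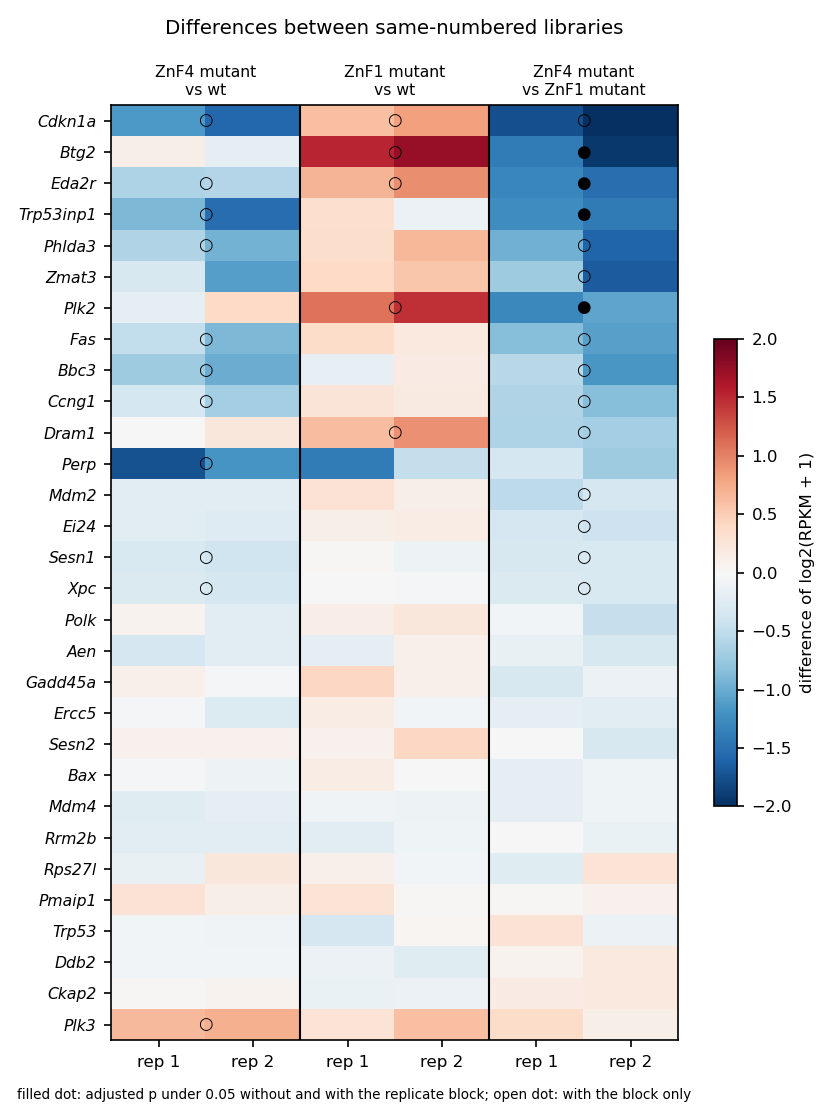
Difference of log2(RPKM + 1) between same-numbered libraries for the 30 genes, ordered by the fold change of the ZnF4 against the ZnF1 mutant, with 1 column for each replicate number. In the columns of the ZnF4 against the ZnF1 mutant, 22 of the 30 genes were below 0 in both replicate numbers, beside 3945 of all 11345 genes. A filled dot marks 4 genes.

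Trp53 itself did not differ between genotypes beyond the spread of its libraries. Its level was 244.5 and 154.9 RPKM in the ZnF4 mutant, 200.9 and 168 in the ZnF1 mutant, with 253.5 and 163 in wt. All 3 groups overlapped, and the log2 fold changes were −0.06 for the ZnF4 mutant and −0.15 for the ZnF1 mutant against wt (SE 0.33 each, limma adjusted p = 1). The 2 RefSeq rows of Trp53 took 66.4% and 33.7% of this sum and overlap in sequence, so the sum may count reads more than once. The level of the RNA says nothing of the amount or activity of the protein.

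Mdm2 stood at 24.5 and 31.4 RPKM in the ZnF4 mutant, 35.5 and 39.7 in the ZnF1 mutant, with 28.8 and 36.5 in wt. It was below the ZnF1 mutant in both ZnF4 mutant libraries, with a difference of −0.42 in log2 (SE 0.2, limma adjusted p = 0.36, or 0.0167 in the blocked fit), and overlapped wt. Without ZnF4 mutant replicate 1 the difference was −0.25. Mdm4 was at 13.6 and 19.3 RPKM in the ZnF4 mutant, 15.5 and 20.5 in the ZnF1 mutant, with 16.3 and 22.1 in wt, with overlapping groups and no call in any of the 3 comparisons with or without the block.

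On the log2(RPKM + 1) scale, Cdkn1a had the largest difference of the 30 genes between the mutants. Its level was 73.6 and 27.5 RPKM in the ZnF4 mutant, 250.4 and 148.6 in the ZnF1 mutant, with 164.7 and 83.4 in wt. Both ZnF4 mutant libraries were below all 4 others, while the ZnF1 mutant and wt overlapped, and within each replicate number the order was ZnF4 mutant, wt, ZnF1 mutant from low to high. The mean in the ZnF4 mutant was 25.3% of that in the ZnF1 mutant and 40.8% of that in wt. The log2 fold change was −2.07 for the ZnF4 against the ZnF1 mutant (limma adjusted p = 0.13, or 0.0017 in the blocked fit), −1.36 for the ZnF4 mutant against wt (0.49, or 0.00699) and 0.71 for the ZnF1 mutant against wt (1, or 0.0484). The SE of these values was 0.59, or 0.16 with the block. They depended on single libraries. Without ZnF4 mutant replicate 2 the value was −1.38 against the ZnF1 mutant. Against wt, the ZnF4 mutant value was −2.05 without its replicate 1, −0.67 without its replicate 2 and −0.87 without wt replicate 1. That of the ZnF1 mutant was 0.34 without its replicate 1, 1.09 without its replicate 2, 1.2 without wt replicate 1 and 0.23 without wt replicate 2.

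**Figure D2:**
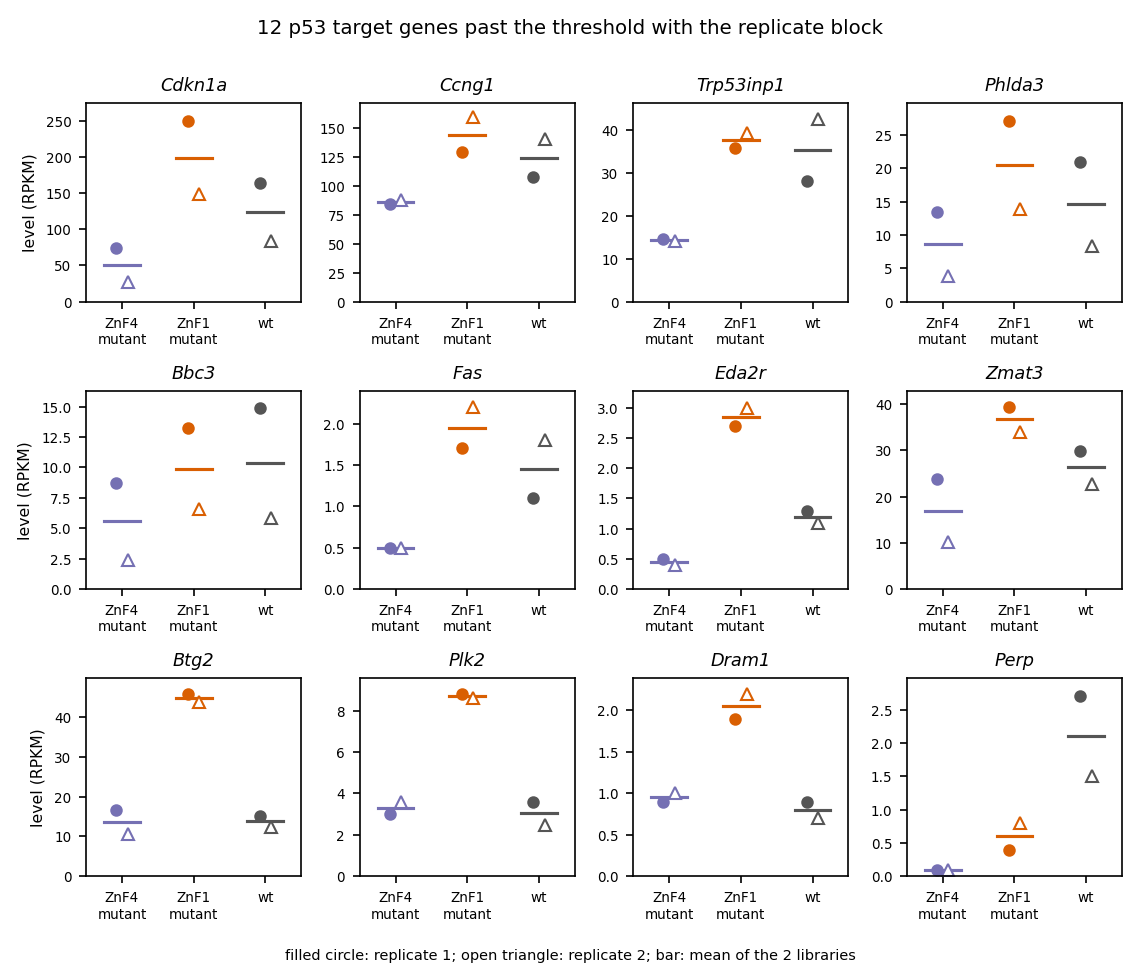
Levels in RPKM of 12 target genes in each library of the 3 genotypes, with a separate linear axis from 0 for each gene. In Cdkn1a, Ccng1, Trp53inp1, Fas and Eda2r both ZnF4 mutant libraries are below all 4 others. In Btg2, Plk2, Eda2r, Zmat3 and Dram1 both ZnF1 mutant libraries are above all 4 others, and Dram1 needed those libraries to pass the filter.

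Among the other cell cycle genes, Ccng1, cyclin G1, was at 84.8 and 87.7 RPKM in the ZnF4 mutant, 129.6 and 159.8 in the ZnF1 mutant, with 108 and 141.1 in wt. Both ZnF4 mutant libraries were again below the other 4, with fold changes of −0.73 against the ZnF1 mutant (limma adjusted p = 0.13, or 0.00758 in the blocked fit) and −0.51 against wt (0.43, or 0.0326), where it was −0.32 without wt replicate 2. Btg2, an antiproliferative gene, stood apart in the other mutant. It was at 16.6 and 10.7 RPKM in the ZnF4 mutant, 45.6 and 43.7 in the ZnF1 mutant, with 15.2 and 12.4 in wt. The ZnF4 mutant overlapped wt, and the mean in the ZnF1 mutant was 324% of that in wt. Btg2 fell by 1.67 (log2) in the ZnF4 against the ZnF1 mutant (SE 0.24, limma adjusted p = 0.0278, and 0.0527 in a fit of the 4 mutant libraries), and the value for the ZnF1 mutant against wt was 1.63 (0.092, or 0.00609 in the blocked fit).

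Plk2, a polo-like kinase gene, followed the pattern of Btg2, at 3 and 3.6 RPKM in the ZnF4 mutant, 8.8 and 8.6 in the ZnF1 mutant, with 3.6 and 2.5 in wt. It fell by 1.18 (log2) in the ZnF4 against the ZnF1 mutant (SE 0.19, limma adjusted p = 0.035), a call that ended with no filter on low values (0.0562), at 5 RPKM (0.0516) and in a fit of 4 libraries (0.0576), and differed by 1.27 in the ZnF1 mutant against wt (0.095, or 0.013 in the blocked fit). Its relative Plk3 was the 1 member higher in the ZnF4 mutant than in wt with the block, at 5.6 and 4.1 RPKM against 3.2 and 2.1 (0.69, limma adjusted p = 0.3, or 0.0183 in the blocked fit), with 4.1 and 3.7 in the ZnF1 mutant. Gadd45a, a growth arrest gene, at 5.8 to 8.9 RPKM over the 6 libraries, and Ckap2, a spindle protein gene, at 26.1 to 35.4 RPKM, had no call in any comparison with or without the block.

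The levels of Btg2 and Plk2 in the ZnF1 mutant stood beside higher myeloid and stromal transcripts in the same libraries. All 13 myeloid markers had a fold change above 0 in the ZnF1 mutant against wt, with a median of 1.36. With the block 12 were called higher (92.3%), as were all 9 tested stromal markers, with a median of 1.38, beside 10.4% of all genes. In the ZnF4 mutant against wt the medians were 0.08 and −0.11, with 0 called higher with the block in both lists (beside 8.02% of all genes). With the block 1 myeloid gene was lower (7.69%, beside 7.92%). Myeloid and stromal cells also express many of the p53 targets. Between the mutants, all 13 myeloid markers had a fold change below 0 in the ZnF4 mutant (median −1.32), as had all 9 stromal markers (median −1.09). Of these, 8 and 3 were called lower without the block (61.5% and 33.3%, beside 3.75% of all genes). The part of myeloid and stromal transcripts in the values of the ZnF1 mutant, also as set against the ZnF4 mutant, was not tested. For the ZnF4 mutant against wt, the summed myeloid markers of the 2 groups overlapped.

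Eda2r, a receptor of the tumour necrosis factor receptor family, was at 0.5 and 0.4 RPKM in the ZnF4 mutant, 2.7 and 3 in the ZnF1 mutant, with 1.3 and 1.1 in wt. The 3 groups did not overlap, and the mean in the ZnF4 mutant was 15.8% of that in the ZnF1 mutant. The level sums 2 RefSeq rows, with 54.4% and 45.6% of it, so reads may be counted more than once. In each row only the ZnF1 mutant libraries reached 1 RPKM. The deposited rounding to 0.1 RPKM is a large share of such values. Eda2r fell by 1.41 (log2) in the ZnF4 against the ZnF1 mutant (SE 0.15, limma adjusted p = 0.0149). Its values were −0.6 in the ZnF4 mutant against wt (0.14, or 0.0327 in the blocked fit) and 0.81 in the ZnF1 mutant against wt (0.1, or 0.0192).

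Fas, the receptor of Fas ligand, was at 0.5 RPKM in both ZnF4 mutant libraries, 1.7 and 2.2 in the ZnF1 mutant, with 1.1 and 1.8 in wt. Both ZnF4 mutant libraries were below all others, with −0.97 against the ZnF1 mutant (limma adjusted p = 0.06, or 0.00833 in the blocked fit) and −0.69 against wt (0.21, or 0.0343). It also passed between the mutants without the block at a pseudocount of 0.1 (adjusted p = 0.0491). At levels this low the deposited rounding to 0.1 RPKM is a large share of the value. A further death receptor gene, Tnfrsf10b, named here after its values were seen, was at 1.8 and 1.5 RPKM in the ZnF4 mutant, 2.1 and 1.3 in the ZnF1 mutant, with 1.2 and 1.1 in wt. Both mutants were above wt and overlapped each other, and it had no call with or without the block.

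Of the BCL2 family members, Bbc3, the BH3-only gene PUMA, was at 8.7 and 2.4 RPKM in the ZnF4 mutant, 13.2 and 6.6 in the ZnF1 mutant, with 14.9 and 5.8 in wt. The groups overlapped, replicate 2 was lower in each genotype, and within each replicate number the ZnF4 mutant was lowest. Its log2 fold change was −0.86 against both wt and the ZnF1 mutant (SE 0.67, limma adjusted p = 0.92 and 0.61, or 0.0239 and 0.0145 in the blocked fit). Single libraries moved these values widely. Against wt it was −1.61 without ZnF4 mutant replicate 1, −0.1 without ZnF4 mutant replicate 2, −0.24 without wt replicate 1 and −1.47 without wt replicate 2. Against the ZnF1 mutant it was −1.61 and −0.1 without the same ZnF4 mutant libraries, and −0.4 and −1.31 without ZnF1 mutant replicates 1 and 2.

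Bax was at 152.2 and 83.7 RPKM in the ZnF4 mutant, 173.8 and 88.9 in the ZnF1 mutant, with 156.6 and 89.5 in wt. Its 3 groups overlapped, and the fold changes of −0.07 against wt and −0.14 against the ZnF1 mutant had an SE of 0.49, or 0.08 with the block, and no call. Pmaip1, the BH3-only gene NOXA, was at 5 and 5.5 RPKM in the ZnF4 mutant, 4.9 and 5.1 in the ZnF1 mutant, with 3.9 and 5 in wt, also with no call.

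**Figure D3:**
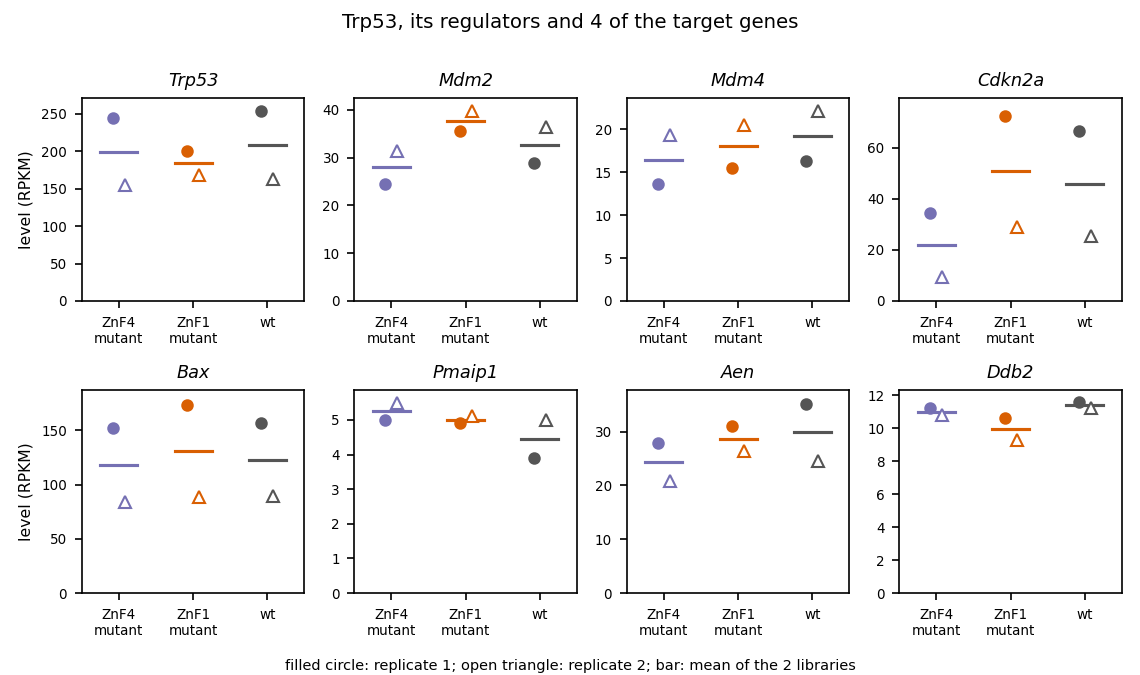
Levels in RPKM of Trp53, its regulators Mdm2, Mdm4 and Cdkn2a, and the targets Bax, Pmaip1, Aen and Ddb2 in each library of the 3 genotypes, each on a linear axis from 0. For Trp53, Mdm4 and Bax the 3 genotypes overlap, while Cdkn2a in the ZnF4 mutant is the lowest genotype within each replicate number.

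Trp53inp1, a nuclear stress protein gene that promotes apoptosis and autophagy, was at 14.6 and 14.2 RPKM in the ZnF4 mutant, 35.8 and 39.4 in the ZnF1 mutant, with 28.1 and 42.6 in wt. The ZnF4 mutant was below all other libraries, at 38.3% of the ZnF1 mutant mean and 40.7% of the wt mean. It fell by 1.32 (log2) in the ZnF4 against the ZnF1 mutant (SE 0.23, limma adjusted p = 0.0384), a call that ended with upper quartile scaling (0.058), quantile normalization (0.0617) and no filter on low values (0.0572). The value against wt was −1.21 (0.074, or 0.0093 in the blocked fit). Phlda3, an inhibitor of AKT, had the levels given above, with the ZnF4 mutant lowest within each replicate number. Its values were −1.28 against the ZnF1 mutant (0.42, or 0.0054 in the blocked fit) and −0.77 against wt (0.98, or 0.035). Against the ZnF1 mutant it was −2.06 without ZnF4 mutant replicate 1, −0.5 without ZnF4 mutant replicate 2 and −0.82 without ZnF1 mutant replicate 1. Against wt it was −1.55 and 0.01 without the same ZnF4 mutant libraries, and −0.16 and −1.38 without wt replicates 1 and 2.

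Zmat3, an RNA-binding zinc finger gene, was at 23.7 and 10.1 RPKM in the ZnF4 mutant, 39.4 and 34 in the ZnF1 mutant, with 29.8 and 22.8 in wt. The ZnF4 mutant was below the ZnF1 mutant (−1.18, limma adjusted p = 0.19, or 0.0185 in the blocked fit) and overlapped wt (−0.71, with no call). Without ZnF4 mutant replicate 2 the value between the mutants was −0.61. Perp, a membrane protein gene, was at 0.1 RPKM in both ZnF4 mutant libraries, 0.4 and 0.8 in the ZnF1 mutant, with 2.7 and 1.5 in wt. Only the wt libraries reached 1 RPKM, so a gene like it could pass the filter only by being high there. Its calls lend no support for that reason, and 0.1 RPKM is the step of the deposited rounding. The value of Perp in the ZnF4 mutant against wt was −1.47 (limma adjusted p = 0.053, or 0.0176 in the blocked fit), and it passed without the block at the smaller pseudocounts of 0.1 and 0.5 (adjusted p = 0.0294 and 0.0417). Both libraries of the ZnF1 mutant were also below wt (−0.94, adjusted p = 0.19, or 0.067 in the blocked fit).

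Dram1, a lysosomal gene of p53-induced autophagy, was at 0.9 and 1 RPKM in the ZnF4 mutant, 1.9 and 2.2 in the ZnF1 mutant, with 0.9 and 0.7 in wt. Only 1 library outside the ZnF1 mutant reached 1 RPKM, so a gene like it could pass the filter only by being high in the ZnF1 mutant. The calls of Dram1 lend no support for that reason. The ZnF1 mutant value was 0.76 against wt (limma adjusted p = 0.12, or 0.0246 in the blocked fit), and the ZnF4 mutant differed from it by −0.64 (0.08, or 0.0188). Ei24, a gene of an endoplasmic reticulum membrane protein, was at 54.8 and 42.9 RPKM in the ZnF4 mutant and 69.8 and 57.4 in the ZnF1 mutant (−0.38, limma adjusted p = 0.45, or 0.0142 in the blocked fit), with 64.1 and 51.5 in wt. Its value was −0.24 without ZnF1 mutant replicate 1 and −0.2 without ZnF4 mutant replicate 2. The nuclease gene Aen, at 20.9 to 35.2 RPKM, and the ribosomal protein gene Rps27l, at 49.2 to 88 RPKM, had no call in any comparison with or without the block. Rps27l closely resembles Rps27, and how reads shared by such copies were counted could not be learned from the labels.

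Of the DNA repair genes, Xpc, which recognises damage for nucleotide excision repair, was at 12.3 and 11.5 RPKM in the ZnF4 mutant, 15.3 and 14.4 in the ZnF1 mutant, with 15.2 and 14.9 in wt, and both ZnF4 mutant libraries were below all others. Its values were −0.32 against wt (limma adjusted p = 0.52, or 0.0424 in the blocked fit) and −0.3 against the ZnF1 mutant (0.35, or 0.029). Its partner in damage recognition, Ddb2, was at 11.2 and 10.8 RPKM in the ZnF4 mutant, 10.6 and 9.3 in the ZnF1 mutant, with 11.6 and 11.2 in wt. Ddb2, the endonuclease gene Ercc5 (6.9 to 8.9 RPKM over the 6 libraries), the polymerase gene Polk (6.2 to 11.9) and the ribonucleotide reductase gene Rrm2b (3.4 to 4.4) had no call in any comparison with or without the block.

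Of the sestrins, which restrain the growth kinase complex mTORC1, Sesn1 was at 21.4 and 21.5 RPKM in the ZnF4 mutant, 27.1 and 26.8 in the ZnF1 mutant, with 26.6 and 28.7 in wt. The ZnF4 mutant was again below all 4 others, by a small and even amount, with −0.35 against wt (limma adjusted p = 0.42, or 0.0345 in the blocked fit) and −0.32 against the ZnF1 mutant (0.31, or 0.0265). Sesn2, at 2 to 4 RPKM, had no call with or without the block.

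With the block, 1 of 21 regulators of p53 was lower in the ZnF4 mutant than in wt, Cdkn2a, and 1 was higher, Hipk2. These were 4.76% each, beside 7.92% lower and 8.02% higher of all genes. In the ZnF1 mutant against wt Hipk2 was the 1 higher (4.76%, beside 10.4%), and 0 were lower (beside 2.88%). Cdkn2a was at 34.5 and 9.4 RPKM in the ZnF4 mutant, 72.6 and 29 in the ZnF1 mutant, with 66.5 and 25.3 in wt. The groups overlapped, and within each replicate number the ZnF4 mutant was lowest, with −1.13 against wt (SE 0.8, limma adjusted p = 0.87, or 0.00692 in the blocked fit) and −1.29 against the ZnF1 mutant (0.5, or 0.00337). The gene encodes ARF and the inhibitor p16, its 2 RefSeq rows share sequence, and both rows were lowest in the ZnF4 mutant within each replicate number. The kinase gene Hipk2, whose product phosphorylates p53, was at 36.4 and 28.3 RPKM in the ZnF4 mutant, 37.8 and 38.5 in the ZnF1 mutant, with 19.8 and 16 in wt, above wt in both mutants (0.82 and 1.06, limma adjusted p = 0.13 and 0.1, or 0.0106 and 0.0097 in the blocked fit).

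Without the block 0 of the 21 passed with limma in any of the 3 comparisons, where 1, 1 and 0 had an unadjusted p under 0.05 in the ZnF4 mutant against wt, the ZnF1 mutant against wt and the ZnF4 against the ZnF1 mutant. Of all 11345 genes, 1329, 1281 and 2195 did, in the same order. With the block Chek2, Trim28, Chek1 and Atr were higher and Rchy1 and Cdkn2a lower in the ZnF4 than in the ZnF1 mutant (4 and 2 of 21, or 19% and 9.52%, beside 15.9% and 19.2% of all genes). The damage kinase gene Chek2 was at 10.1 and 12.4 RPKM in the ZnF4 mutant and 8.3 and 8.7 in the ZnF1 mutant, with 9.4 and 10.1 in wt (0.36 between the mutants, adjusted p = 0.33, or 0.031 in the blocked fit). Npm1, nucleophosmin, which binds ARF and was named after its values were seen, was at 92.8 and 169 RPKM in the ZnF4 mutant, 80.5 and 62.4 in the ZnF1 mutant, with 95.2 and 113 in wt. The mutants did not overlap, but the value of 0.81 between them had no call (adjusted p = 0.26, or 0.078 in the blocked fit). Atm, at 6.7 to 11.5 RPKM, and the p53 phosphatase gene Ppm1d, at 12.9 to 16.1, had no call with or without the block. The p53 relatives Trp63 and Trp73 were listed at 0 in all 6 libraries.

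A further list of 31 p53 targets, of which 30 were tested, was set beside the members. In the ZnF4 against the ZnF1 mutant 24 had a fold change below 0, with a median of −0.31, and 2 fell without the block. These were Pltp, a phospholipid transfer protein gene, at 7.5 and 5.7 RPKM against 18.9 and 18.3 (−1.38, limma adjusted p = 0.0247), and the matrix gene Thbs1, at 17.6 and 15.1 RPKM against 107.5 and 55.2 (−2.17, adjusted p = 0.0322). With the block 13 were lower (43.3%, beside 19.2% of all genes), among them the metabolic gene Ak1 and the cytokine gene Lif. The replication clamp gene Pcna was the 1 higher (3.33%, beside 15.9%), at 58.9 and 56.4 RPKM against 47.7 and 35 (0.49, adjusted p = 0.33, or 0.0266). Against wt the ZnF4 mutant had 13 above 0 and 17 below, a median of −0.03, with 0 called without the block. At an unadjusted p under 0.05 there was 1 gene, beside 1329 of all 11345. With the block 2 were lower, Lif and Foxo3 (6.67%, beside 7.92%). The ZnF1 mutant had a median of 0.18 against wt, with 0 called and 4 at an unadjusted p under 0.05, beside 1281 of all 11345 genes. With the block 6 were higher, Pltp, Thbs1, Ak1, Abhd4, Cd82 and Gpx1 (20%, beside 10.4%). These comparisons of the ZnF1 mutant stand beside the myeloid and stromal transcripts given above, whose part was not tested.

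Of 25 cell cycle genes that p53 represses through p21 and the DREAM complex, 24 had a fold change above 0 in the ZnF4 against the ZnF1 mutant, with a median of 0.41. Without the block 0 passed with limma, with 8 higher at an unadjusted p under 0.05, beside 776 higher of all 11345 genes. With the block 18 were higher (72%, beside 15.9% of all genes), of which Cdk1, Ccnb1, Prc1, Bub1b and Cdc25a had the lowest p. The mitotic kinase gene Cdk1 was at 59.2 and 63.8 RPKM in the ZnF4 mutant and 44.6 and 41.9 in the ZnF1 mutant (0.5, adjusted p = 0.13, or 0.011 in the blocked fit), and the cyclin gene Ccnb1 at 9.9 and 13.5 against 6.3 and 7.6 (0.67, adjusted p = 0.15, or 0.0142). Against wt, 23 were above 0 in the ZnF4 mutant (median 0.22), with 1 at an unadjusted p under 0.05, beside 1329 of all genes. Prc1, a spindle midzone gene, was higher with the block (4%, beside 8.02%). In the ZnF1 mutant 24 were below 0 (median −0.17), with 0 at an unadjusted p under 0.05, beside 1281 of all genes. Ect2 and Cenpf were lower with the block (8%, beside 2.88%). The comparisons with the ZnF1 mutant stand beside its higher myeloid and stromal transcripts, whose part was not tested. Whether p53 or p21 had a part in the values of these cell cycle genes was not tested either.

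The genes of a last list, drawn up for stress pathways, did not share 1 direction. Of 13 tested, 0 passed without the block in any comparison, with 1, 1 and 5 at an unadjusted p under 0.05 in the ZnF4 mutant against wt, the ZnF1 mutant against wt and the ZnF4 against the ZnF1 mutant. Over all 11345 genes these counts were 1329, 1281 and 2195. With the block Trib3, Chac1 and Atf4 were higher and Atf3, Xbp1, Hmox1, Ddit3 and Ddit4 lower in the ZnF4 than in the ZnF1 mutant (23.1% and 38.5% of the 13, beside 15.9% and 19.2%). Against wt, Trib3 and Atf4 were higher in the ZnF4 mutant with the block (15.4%, beside 8.02%), and in the ZnF1 mutant Atf3 and Hmox1 were higher (15.4%, beside 10.4%) and Trib3 lower. Xbp1, a regulator of the unfolded protein response, was also lower than wt in the ZnF4 mutant, at 36.4 and 33.5 RPKM against 134.2 and 100.9 (−1.71, limma adjusted p = 0.07, or 0.00469 in the blocked fit).

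**Figure D4:**
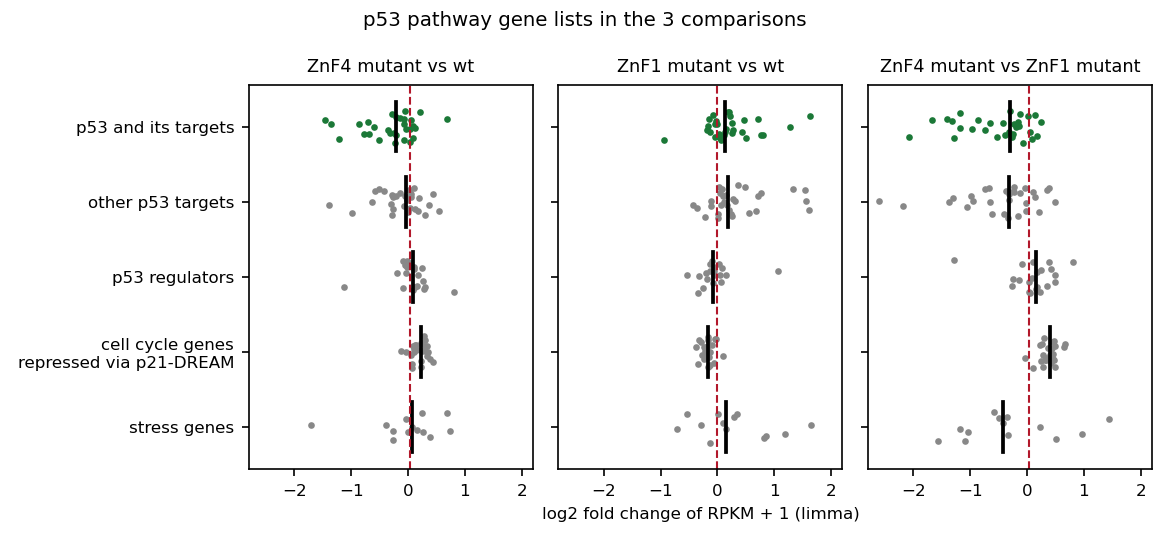
Fold change (log2 of RPKM + 1, limma) of each tested gene of 5 lists in the 3 comparisons, with a black bar at the median of the list and a dashed line at the median of all 11345 genes tested. In the ZnF4 against the ZnF1 mutant the 30 genes of p53 and its targets have a median of −0.31 and the 25 cell cycle genes of 0.41.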

How the data were processed

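Polyadenylated RNA was sequenced from 6 cultures, 2 in each of 3 genotypes. The authors deposited RPKM values for 26531 RefSeq transcripts, written to 1 decimal, per the file headers. TopHat, bedtools and the build mm9 are named in the submitters' processing notes, without versions, and counting rules and strand use are not given in the sources used here. Depth is unknown, since rounding hides the step of 1 read, so no counting interval is given.

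Rows were summed by symbol to 22099 genes, 39 of 40 symbols stored as numbers were restored by accession, and 1 row without a gene was left out. The 11345 genes that reached 1 RPKM in 2 or more libraries were tested with limma 3.58.1 (R 4.3.3, intensity trend, two-sided) on log2(RPKM + 1). Both fits were also run on simulated data. For the fit without the block these data lacked the deviations that same-numbered libraries share here, so the run cannot show how that fit fares with them. p-values measure the spread between 2 libraries a group. Replicate numbers come from the labels, which do not say what same-numbered libraries share. All 30 members were described. From other lists, genes past the threshold with or without the block were named, at most 5 in each direction by lowest p unless a full short list is given, with Cdkn2a, Atm, Chek2, Ppm1d, Trp63 and Trp73. Members and lists were chosen with earlier results of these data known. Trac was not found. Some genes of the lists are not reported here.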

Additional observations from a re-analysis of the deposited data

How the results depend on the processing

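With the replicate block (residual degrees of freedom 2, against 3), members called higher and lower numbered 1 and 10 in the ZnF4 mutant against wt, 5 higher in the ZnF1 mutant against wt, and 15 lower in the ZnF4 against the ZnF1 mutant. All genes called higher and lower then numbered 910 and 899, 1175 and 327, and 1803 and 2176, against 162 and 147, 0 and 0, and 183 and 426 without the block. The block changed no other call of a member. A single member, Perp, was lower in the ZnF4 mutant against wt at a pseudocount of 0.1 or 0.5, with upper quartile scaling and with quantile normalization. Perp entered the test only through the wt libraries, where it was highest. Both rescalings ended the call of Trp53inp1 in the ZnF4 against the ZnF1 mutant, a pseudocount of 0.1 added Fas there, and upper quartile scaling called 1 gene lower in the ZnF1 mutant against wt. In the ZnF4 against the ZnF1 mutant, 2 members were lower without a filter on low values, 2 when a gene had to reach 5 RPKM, and 2 in the fit of 4 libraries. At 5 RPKM the counts of all genes were 79 and 97 (ZnF4 mutant against wt) and 94 and 229 (ZnF4 against ZnF1 mutant), and with 4 libraries 42 and 44, and 79 and 155. Without the pair with most granulocyte transcripts (wt replicate 1 and ZnF1 mutant replicate 2), 0 members and 0 genes were called in any comparison. That fit keeps 1 residual degree of freedom, and its fold changes of Eda2r, Btg2, Plk2 and Trp53inp1 in the ZnF4 against the ZnF1 mutant were −1.35, −1.7, −1.19 and −1.26. Leaving out single libraries gave 0 to 2 members lower in the ZnF4 against the ZnF1 mutant (0 without any of the 4 mutant libraries, 2, Eda2r and Trp53inp1, without either wt library) and 0 to 86 and 0 to 176 genes, and 0 to 44 and 0 to 44 genes in the ZnF4 mutant against wt. The fold changes of the 4 members then spanned −1.47 to −1.35, −1.96 to −1.38, −1.28 to −1.08 and −1.39 to −1.26. Phlda3 in the ZnF4 mutant against wt, called only with the block, was at 0.01 without ZnF4 mutant replicate 2, and the other 10 members called there with the block kept their sign without any 1 library. Rows taken by their highest value, and robust variances, gave the same calls of members. The adjusted p of Eda2r, Btg2, Plk2 and Trp53inp1 over the alternatives other than the block was 0.015 to 0.167, 0.019 to 0.269, 0.0287 to 0.236 and 0.0379 to 0.223. No rescaling moved the median of all genes by 0.1 or more. Depth is unknown, and the rounding to 0.1 RPKM limits genes of low level such as Eda2r, Fas, Dram1 and Perp.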
